A study of Mus musculus with 7 samples.

Results

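The genes described here are 9 genes of the colonocyte brush border: villin (Vil1), the intermicrovillar protocadherins Cdhr2 and Cdhr5, the meprin subunits Mep1a and Mep1b, the surface peptidases Dpp4 and Anpep, and the guanylin hormones Guca2a and Guca2b. They are the rows of the deposited table of estimated counts whose Ensembl identifiers map to these symbols, 9 of 43346 rows, and all 9 were among the 15810 genes with enough counts to be tested. The set was selected on measured values, with the log2 fold changes between the 2 grafts in these same tumors already known, so its values in that contrast are a description and carry no test.

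RNA of whole colon tumors was sequenced after a bone marrow (BM) transplant, to ask how loss of 1 copy of the DNA methyltransferase gene Dnmt3a in blood-forming cells alters the tumor. Recipients were wild-type mice, C57BL6/J and 8 weeks old in the labels and congenic CD45.1 mice 6 weeks old in the methods, and received either Dnmt3a+/+ BM (3 tumors) or Dnmt3a+/Δ BM (4 tumors, written Dnmt3a(+/-) in the labels). All had been lethally irradiated, and in all of them tumors were induced with the carcinogen azoxymethane (AOM, 10 mg/kg, given 1 time), followed by dextran sulfate sodium (DSS), which injures the colon epithelium, at 3% of the drinking water in 3 cycles. The donors' floxed allele was deleted by Mx1-Cre after poly(I:C), an interferon inducer, so the deletion was not limited to 1 blood lineage, and the tumor epithelium itself was of host genotype. The sample descriptions begin with BMT18 or BMT8, read here as 2 transplant experiments, though what the prefix stands for is not stated. BMT18 held Dnmt3a+/+ tumors 1 and 2 and Dnmt3a+/Δ tumors 1 and 2. BMT8 held Dnmt3a+/+ tumor 3 and Dnmt3a+/Δ tumors 3 and 4. The labels call the tumors biological replicates and number them separately. The study's overview of its supplement counts 1 mouse per tumor, but with 3 Dnmt3a+/Δ and 4 control mice, the reverse of the labels. Its figure and table legends give 4 Dnmt3a+/Δ and 3 control samples, as the labels do. The spread reported is taken as that between mice with 1 tumor each.

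The brush border is the carpet of microvilli on the luminal face of absorptive epithelial cells. Each microvillus holds a core of actin filaments bundled by villin and other bundlers, and Cdhr2 and Cdhr5 form adhesive links between the tips of neighbouring microvilli and so pack them together. The membrane carries digestive ectoenzymes, among them the meprins, zinc metalloproteases of the astacin family, which cleave peptides, matrix proteins and mucin. Guanylin and uroguanylin are small peptides secreted into the lumen, where they bind the receptor guanylate cyclase C and raise cyclic GMP, which drives chloride and fluid secretion.

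Total estimated counts ran from 38472738 to 64314999 per tumor. Levels are given as CPM, counts relative to the library size, with library sizes scaled by the trimmed mean of M-values (TMM). Summed CPM of 9 pan-epithelial genes (Epcam, Cdh1, keratins 8, 18 and 19, claudins 3 and 7, Esrp1, Grhl2) was 15300 to 32000 in the Dnmt3a+/+ tumors and 9230 to 20700 in the Dnmt3a+/Δ tumors. Epithelial message was thus abundant in all 7 tumors. Of 6 small intestinal enterocyte genes, Apoa1, Apoa4 and Apoc3 were at or near 0, with a highest value of 0.189 CPM. The other 3 were present in every tumor: Slc5a1 at 37.0 to 125 CPM, Rbp2 at 2.06 to 24.4 CPM and Fabp2 at 2.39 to 13.2 CPM. Stromal content was uneven. Dnmt3a+/Δ tumor 2 had the highest summed macrophage (441 CPM), fibroblast (993 CPM) and endothelial (107 CPM) markers, and Dnmt3a+/+ tumor 3 had almost no smooth muscle markers, at 7.62 CPM against 165 CPM or more in each of the other tumors. Of 5 endothelial markers, 4 were higher in every Dnmt3a+/Δ tumor than in any Dnmt3a+/+ tumor, as were 6.12% of all genes tested, with summed levels of 9.03 to 17.6 CPM against 18.12 to 107 CPM. In such bulk RNA, fewer epithelial cells and less RNA per epithelial cell cannot be told apart.

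Across the 9 genes, 7 had a lower fitted level with Dnmt3a+/Δ BM and 2, Dpp4 and Anpep, a higher one. Their median log2 fold change was -0.67, beside 0.0025 for all genes tested. Their summed level was 1380 to 1800 CPM in the Dnmt3a+/+ tumors and 781 to 1210 CPM in the Dnmt3a+/Δ tumors. The 3 genes whose groups did not overlap were Mep1b, Cdhr2 and Cdhr5, all lower with Dnmt3a+/Δ BM, where 6.32% of all genes tested had every Dnmt3a+/Δ tumor below every Dnmt3a+/+ tumor. By the study's thresholds (adjusted p under 0.05 and a log2 fold change beyond 1 in size), edgeR called 0 of the 9, with 0% of all genes called. The study applied these thresholds with DESeq2 and reported genes in both directions. In the present run DESeq2 called 304 genes. At an unadjusted p under 0.05 edgeR counted 5 of the 9 as lower (Mep1b, Cdhr2, Cdhr5, Guca2a and Mep1a), against 5.2% of all genes, and DESeq2 called 1 of them lower, Mep1b, against 0.417% of all genes. Nothing is read from these counts, since the contrast they come from had chosen the genes.

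**Figure D1:**
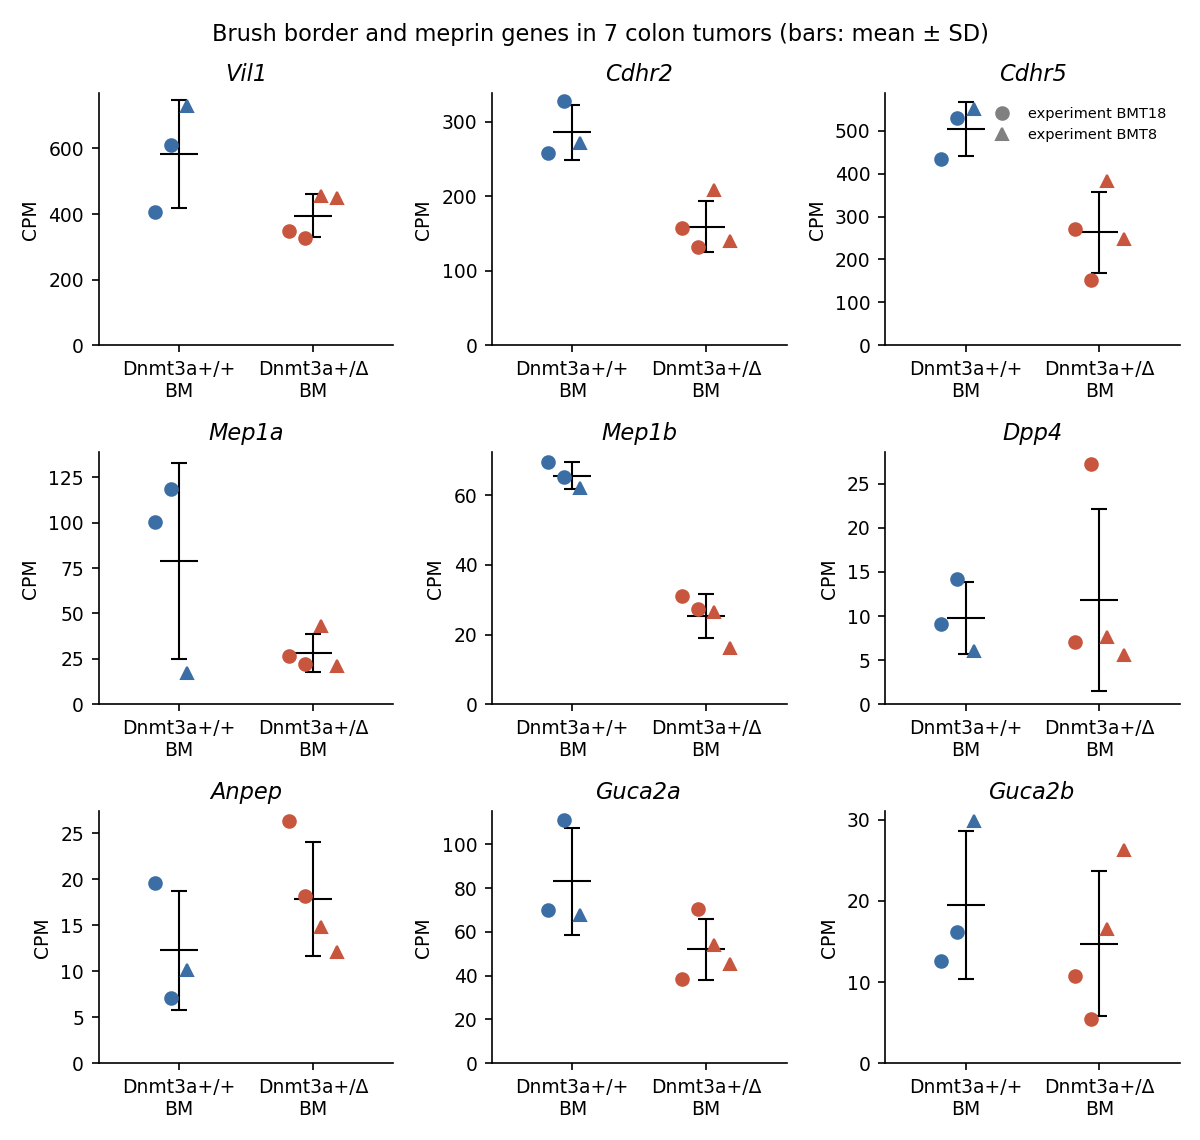
Level of each of the 9 genes (CPM, linear axis from 0) in the 3 Dnmt3a+/+ BM tumors (blue) and the 4 Dnmt3a+/Δ BM tumors (red), with circles for experiment BMT18, triangles for BMT8, and bars for mean ± SD. The groups are apart for Cdhr2, Cdhr5 and Mep1b, 1 Dnmt3a+/+ tumor lies below all others for Mep1a, and Guca2b splits by experiment.

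Per kilobase of exon, which allows genes to be compared with one another, the set spanned a wide range. In the Dnmt3a+/+ tumors Cdhr5 was at 184 ± 22.7 RPKM (CPM per kilobase of exon; SD, n = 3), Vil1 at 164 ± 46.2 and Guca2a at 140 ± 41.3, and among these 3 no neighbours in the order differed beyond their SDs. Cdhr2 followed at 69.1 ± 9.01 RPKM. Mep1b at 25.0 ± 1.45, Mep1a at 22.8 ± 15.7 and Guca2b at 22.4 ± 10.5 RPKM formed a middle group that again could not be ordered. Anpep at 2.97 ± 1.57 and Dpp4 at 1.55 ± 0.650 RPKM, the broadly expressed peptidases, were the lowest. In the Dnmt3a+/Δ tumors the same 4 genes led, with Vil1 at 111 ± 18.78 RPKM, Cdhr5 at 96.1 ± 34.6, Guca2a at 87.7 ± 23.5 and Cdhr2 at 38.5 ± 8.24 (SD, n = 4).

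The structural genes come first. Vil1 (ENSMUSG00000026175, chr1:74409376-74435559, plus strand, GRCm38), the actin bundler of the microvillus core, was at 406, 611 and 731 CPM in Dnmt3a+/+ tumors 1 to 3 and at 349, 327, 455 and 449 CPM in Dnmt3a+/Δ tumors 1 to 4. Dnmt3a+/+ tumor 1 lay below 2 of the Dnmt3a+/Δ tumors, so the groups overlapped. The fitted log2 fold change was -0.56 ± 0.24 (SE), and it was -0.37 without Dnmt3a+/+ tumor 3. Vil1 shares 49 exonic bases with Usp37 on the other strand. The library kit marks strand, but whether the counting used it was not given in the sources used here.

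Cdhr2 (ENSMUSG00000034918, chr13:54701461-54736662, plus strand), a protocadherin of the microvillus tip, was at 257, 328 and 271 CPM in the Dnmt3a+/+ tumors and at 157, 132, 208 and 140 CPM in the Dnmt3a+/Δ tumors. Every Dnmt3a+/Δ tumor was lower, and the mean was 55.7% of that in the Dnmt3a+/+ tumors (log2 fold change -0.84 ± 0.20). Cdhr5 (ENSMUSG00000025497, chr7:141269083-141276786, minus strand), its binding partner on the neighbouring microvillus, was at 433, 529 and 550 CPM against 271, 152, 383 and 247 CPM. Again no tumor crossed over, and the Dnmt3a+/Δ mean was 52.3% of the Dnmt3a+/+ mean (log2 fold change -0.94 ± 0.29). As the groups did not overlap, the direction within each experiment was fixed and adds nothing. The log2 ratios were -1.02 (Cdhr2) and -1.18 (Cdhr5) in BMT18 and -0.64 and -0.80 in BMT8, which has 1 Dnmt3a+/+ tumor. Leaving out any 1 tumor kept Cdhr2 between -0.997 and -0.733 and Cdhr5 between -1.17 and -0.72. The partners kept nearly fixed proportions, with 2.54, 2.43 and 3.06 times as much Cdhr5 as Cdhr2 per kilobase in the Dnmt3a+/+ tumors and 2.61, 1.74, 2.78 and 2.66 times in the Dnmt3a+/Δ tumors. Only Dnmt3a+/Δ tumor 2, the tumor with the highest macrophage, fibroblast and endothelial markers, fell below 2.

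Because these partners moved together, the 250 bases before each gene's start are shown (8 of the 9 genes matched a window; RefSeq, GRCm38.p6, 5′ to 3′ on the gene's strand), in lower case with matches to 2 short motifs in capitals. The Cdhr2 window is chr13:54701213-54701462, plus strand, and the Cdhr5 window is chr7:141276787-141277036, minus strand.
Cdhr2: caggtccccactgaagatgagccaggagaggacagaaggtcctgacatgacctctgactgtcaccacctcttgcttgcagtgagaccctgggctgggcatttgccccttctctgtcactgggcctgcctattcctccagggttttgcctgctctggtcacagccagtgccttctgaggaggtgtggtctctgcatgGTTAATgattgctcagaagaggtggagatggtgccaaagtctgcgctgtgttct
Cdhr5: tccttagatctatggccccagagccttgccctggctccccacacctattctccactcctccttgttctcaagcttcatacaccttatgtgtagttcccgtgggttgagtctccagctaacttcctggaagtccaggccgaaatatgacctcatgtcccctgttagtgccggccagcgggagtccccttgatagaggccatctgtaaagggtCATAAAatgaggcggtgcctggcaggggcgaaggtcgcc
The capitals in Cdhr2 are GTTAAT, letters found within the site of the hepatocyte nuclear factor HNF1, 54 bases before the start. Those in Cdhr5 are CATAAA, the reverse complement of the CDX motif TTTATG, 39 bases before the start. On either strand, GTTAAT stood in 6.4% and TTTATG in 10.8% of 32851 promoter windows of this length, and CAAAGTCCA (HNF4), searched in the same way, stood in 0.4% of them and in 0 of the 8 windows of the set. TATAAA stood in 12.4% of all windows and, in the set, in that of Dpp4 alone. Neither window shown holds the motif found in the other. A match is a string of letters and not a measured binding site.

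The 2 meprin genes encode the alpha and beta chains of one family of enzymes, and their levels went different ways between tumors. Mep1b (ENSMUSG00000024313, chr18:21061923-21100199, plus strand), the membrane-bound beta chain, had the smallest SD relative to its mean of all 9 genes in the Dnmt3a+/+ tumors, at 69.6, 65.4 and 62.0 CPM in the Dnmt3a+/+ tumors and 31.1, 27.3, 26.5 and 16.2 CPM in the Dnmt3a+/Δ tumors. The groups did not overlap, with the highest Dnmt3a+/Δ tumor at 31.1 CPM and the lowest Dnmt3a+/+ tumor at 62.0 CPM. The Dnmt3a+/Δ mean was 38.5% of the Dnmt3a+/+ mean (log2 fold change -1.38 ± 0.22). Here too the direction within each experiment was fixed by the lack of overlap. The log2 ratio was -1.21 within BMT18 and -1.54 within BMT8, which has 1 Dnmt3a+/+ tumor. Leaving out any 1 tumor kept the log2 fold change between -1.47 and -1.21.

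Mep1a (ENSMUSG00000023914, chr17:43474324-43502812, minus strand), the alpha chain, which is secreted or held at the membrane by the beta chain, was at 100.5, 119 and 17.2 CPM in the Dnmt3a+/+ tumors and at 26.7, 22.1, 43.1 and 20.98 CPM in the Dnmt3a+/Δ tumors. Dnmt3a+/+ tumor 3 was thus the lowest of all 7, while Dnmt3a+/+ tumors 1 and 2 were the highest. The mean was 78.8 ± 54.1 CPM against 28.2 ± 10.2 CPM (log2 fold change -1.48 ± 0.58), and without Dnmt3a+/+ tumor 3 the fold change was -1.95. The direction turned between experiments, with a log2 ratio of -2.17 in BMT18 and 0.90 in BMT8, where 1 Dnmt3a+/+ tumor is all there is. Per kilobase, Mep1a was 1.10, 1.38 and 0.211 times Mep1b in the Dnmt3a+/+ tumors and 0.652, 0.614, 1.24 and 0.985 times in the Dnmt3a+/Δ tumors. The same Dnmt3a+/+ tumor 3 was also the lowest of its group in 5 of 7 absorptive colonocyte markers: Car4 (3.52 CPM against 140 CPM or more in the other Dnmt3a+/+ tumors), Slc26a3 (2.14 against 129 or more), Aqp8 (3.55 against 65.3 or more), Cyp2c55 (0.642 against 33.9 or more) and Slc26a2 (78.0 against 223.5 or more). It was not low in Krt20 or Car1, at 1103 and 341 CPM, the highest values of the Dnmt3a+/+ group, and the part of this tumor's composition in its Mep1a level was not tested.

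The peptidases were the 2 genes of the set with a higher fitted level in the Dnmt3a+/Δ tumors. Dpp4 (ENSMUSG00000035000, chr2:62330073-62412231, minus strand), also known as CD26, which removes dipeptides from incretins and chemokines and is also carried by lymphocytes and fibroblasts, was at 9.05, 14.2 and 6.09 CPM in the Dnmt3a+/+ tumors and at 7.01, 27.3, 7.596 and 5.54 CPM in the Dnmt3a+/Δ tumors. Dnmt3a+/Δ tumor 2 stood above all others and the remaining tumors were mixed. The log2 fold change of 0.28 ± 0.61 became -0.51 without that tumor, in which the fibroblast markers were also highest (993 CPM, against 149 to 355 CPM elsewhere); their part in the Dpp4 level was not tested. Dpp4 shares 232 exonic bases with Gm13561, a gene on the opposite strand.

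Anpep (ENSMUSG00000039062, chr7:79821803-79861059, minus strand), aminopeptidase N or CD13, also found on myeloid and stromal cells, was at 19.6, 7.13 and 10.1 CPM in the Dnmt3a+/+ tumors and at 26.3, 18.15, 14.8 and 12.1 CPM in the Dnmt3a+/Δ tumors. The groups overlapped, because Dnmt3a+/+ tumor 1 exceeded 3 of the 4 Dnmt3a+/Δ tumors. The log2 fold change was 0.54 ± 0.41, and 1.05 without Dnmt3a+/+ tumor 1 or 0.26 without Dnmt3a+/+ tumor 2.

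Guca2a and Guca2b, the 2 guanylin genes, lie 17.1 kb apart on chromosome 4 in a tail to tail arrangement with 0 annotated genes between them. Guca2a (ENSMUSG00000023247, chr4:119637704-119639471, plus strand) encodes guanylin, and Guca2b (ENSMUSG00000032978, chr4:119656607-119658954, minus strand) encodes uroguanylin. Their starting windows are shown because the levels of these neighbours did not follow each other, Guca2a from chr4:119637482-119637731, plus strand, and Guca2b from chr4:119658946-119659195, minus strand (250 bases before the start, RefSeq, GRCm38.p6).
Guca2a: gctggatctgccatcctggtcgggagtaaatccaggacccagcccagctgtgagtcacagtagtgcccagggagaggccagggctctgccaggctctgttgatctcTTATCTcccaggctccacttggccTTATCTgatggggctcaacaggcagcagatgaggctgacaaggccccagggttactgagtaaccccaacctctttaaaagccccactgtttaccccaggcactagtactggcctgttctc
Guca2b: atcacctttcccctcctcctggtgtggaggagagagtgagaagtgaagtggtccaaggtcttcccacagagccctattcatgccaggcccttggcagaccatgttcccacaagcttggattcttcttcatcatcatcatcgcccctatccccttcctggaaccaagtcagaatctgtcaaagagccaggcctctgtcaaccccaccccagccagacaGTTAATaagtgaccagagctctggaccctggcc
The capitals in Guca2a are TTATCT, the reverse complement of the GATA motif AGATAA, 144 and 120 bases before the start, and AGATAA stood on either strand in 10% of all windows of this length. Those in Guca2b are the HNF1 letters GTTAAT, 33 bases before the start, which Cdhr2 also carried. The 2 windows share none of the 5 motifs searched.

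Guca2a was at 70.2, 111 and 67.6 CPM in the Dnmt3a+/+ tumors and at 38.3, 70.6, 54.2 and 45.4 CPM in the Dnmt3a+/Δ tumors. Only Dnmt3a+/Δ tumor 2 reached into the Dnmt3a+/+ range, and the log2 ratio was -0.74 within BMT18 and -0.44 within BMT8. The log2 fold change was -0.67 ± 0.26, between -0.82 and -0.41 with any 1 tumor left out, and the upper end came without Dnmt3a+/+ tumor 2. Guca2b was at 12.5, 16.1 and 29.8 CPM in the Dnmt3a+/+ tumors and at 10.7, 5.48, 16.5 and 26.3 CPM in the Dnmt3a+/Δ tumors. The groups overlapped throughout, with a log2 fold change of -0.40 ± 0.53 that became 0.027 without Dnmt3a+/+ tumor 3. With experiment as a term it was -0.69 ± 0.30, and the log2 ratio was -0.83 within BMT18 and -0.48 within BMT8. Per kilobase, Guca2a exceeded Guca2b in all 7 tumors, by 8.20, 10.1 and 3.32 times with Dnmt3a+/+ BM and by 5.25, 18.9, 4.81 and 2.53 times with Dnmt3a+/Δ BM. The 3 lowest of these ratios were those of the 3 BMT8 tumors.

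The difference between the 2 experiments, with graft as a term in the fit, had no part in choosing the genes and was tested. Guca2b was higher in BMT8, at 24.2 ± 6.88 CPM (SD, n = 3), than in BMT18, at 11.2 ± 4.43 CPM (SD, n = 4). Every BMT8 tumor exceeded every BMT18 tumor, as held for 7.69% of all genes tested. The log2 difference was 1.27 ± 0.30 (SE), with an edgeR adjusted p of 0.191, which ran from 0.105 to 0.561 as each tumor was left out, while DESeq2 gave an adjusted p of 0.0084 and so called it, as it did 1.17% of all genes in that direction. An exact two-sided permutation test of its log2 CPM without the graft term gave p = 0.0571, beside the smallest possible p of 1 in 35. Vil1 also had a higher fitted level in BMT8 (log2 difference 0.46 ± 0.17) and Dpp4 a lower one (-1.20 ± 0.48), with edgeR adjusted p of 0.232 and 0.246, and Dpp4 came to -0.48 without Dnmt3a+/Δ tumor 2. These 3 of 9 genes had an unadjusted p under 0.05, against 19.4% of all genes tested, and edgeR called 0 of the 9 and 0.00633% of all genes. The other 6 had log2 differences between -0.62 and 0.42 with edgeR adjusted p of 0.394 or more. Mep1a, at -0.62, turned to 0.39 without Dnmt3a+/+ tumor 3 and to 0.38 among the Dnmt3a+/Δ tumors alone. Krt8, Krt18, Krt19, Cldn3, Cldn7 and Epcam, 6 of the 9 pan-epithelial genes, had an unadjusted p under 0.05 in the same contrast, all higher in BMT8, and their part in the Guca2b and Vil1 differences was not tested.

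**Figure D2:**
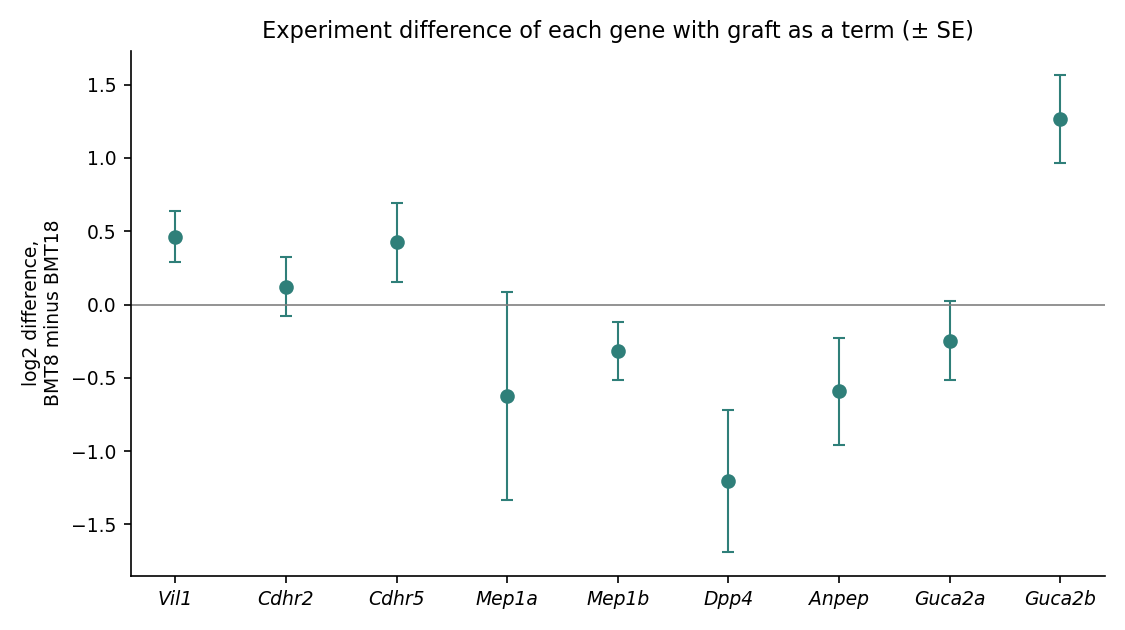
Log2 difference of each of the 9 genes between experiments as read from the sample descriptions, BMT8 minus BMT18, with graft as a term. Points are estimates and bars ± SE (3 and 4 tumors). Guca2b stands highest at 1.27 and Dpp4 lowest at -1.20, and no gene passed the edgeR threshold.

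Since the epithelial markers themselves were lower with Dnmt3a+/Δ BM (8 of 9 below 0, median log2 fold change -0.48), the genes were also set against them. Scaling each library by the geometric mean of the 9 pan-epithelial genes, a choice made after seeing the data, shifted the median of all genes to 0.39 and that of the 9 brush border genes to -0.24. Their distance from all genes was then -0.63, against -0.68 with TMM scaling. Such scaling moves every gene by about the same amount, so this distance could change little and nothing is read from it. On this scale Mep1a was at -1.22 ± 0.64 (SE), Mep1b at -0.96 ± 0.37, Cdhr5 at -0.58 ± 0.25 and Cdhr2 at -0.47 ± 0.25, so all 4 stayed below 0. Vil1, at -0.14 ± 0.18, was within its SE of 0, as were Guca2a at -0.24 ± 0.39 and Guca2b at -0.055 ± 0.39. Scaling by the summed counts of the same genes, which the abundant keratins dominate, moved all genes to 0.63 and the set to 0.016. Vil1 at 0.12, Guca2a at 0.016 and Guca2b at 0.16 were then on the other side of 0. Mep1a was at -1.05 ± 0.69, Mep1b at -0.70 ± 0.48, Cdhr5 at -0.35 ± 0.34 and Cdhr2 at -0.23 ± 0.37 (SE). Cdhr2 was thus within its SE of 0 on this scale, and Cdhr5 was barely beyond it.

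Taken tumor by tumor as log2 CPM minus the mean log2 CPM of the pan-epithelial genes, Mep1b was at -3.46, -3.86 and -4.28 in the Dnmt3a+/+ tumors and at -4.48, -4.35, -4.91 and -5.82 in the Dnmt3a+/Δ tumors. It was the 1 gene of the 9 whose groups still did not overlap, where 0.601% of all genes had every Dnmt3a+/Δ tumor lower on this scale. The gap between the nearest tumors was small, -4.28 against -4.35. The genes were chosen with their graft fold changes in these tumors known, so nothing is read from this lack of overlap. Cdhr5, at -0.82, -0.84 and -1.13 against -1.36, -1.87, -1.06 and -1.89, overlapped through Dnmt3a+/Δ tumor 3, and Cdhr2, at -1.57, -1.53 and -2.15 against -2.15, -2.08, -1.94 and -2.70, overlapped through Dnmt3a+/+ tumor 3. Vil1 lay between -1.02 and -0.64 in all 7 tumors, the narrowest range of the 9 genes.

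**Figure D3:**
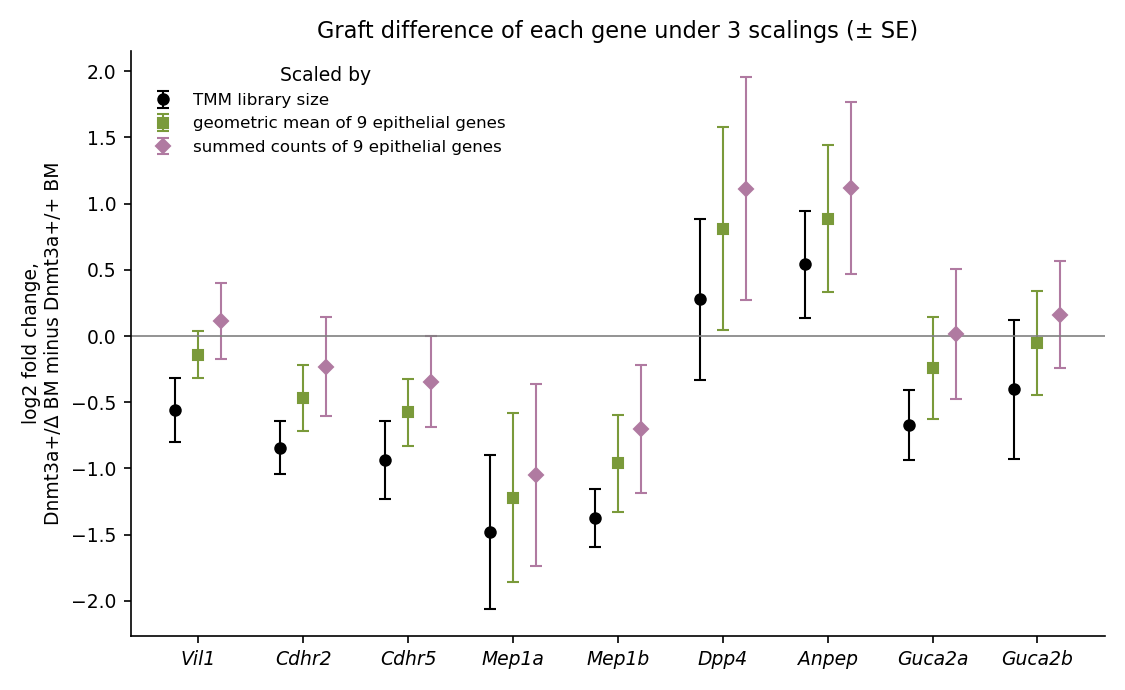
Log2 fold change of each of the 9 genes, Dnmt3a+/Δ BM minus Dnmt3a+/+ BM, with libraries scaled by TMM (black), by the geometric mean of 9 pan-epithelial genes (green) or by their summed counts (purple); bars are ± SE. Mep1a, Mep1b, Cdhr2 and Cdhr5 lie below 0 under all 3 scalings, and Dpp4 and Anpep above it. Under the summed scaling Vil1, Guca2a and Guca2b cross 0, and Cdhr2 is within its SE of 0.

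Other genes of the same structures and pathways place the set in context. These lists were drawn up with earlier results of the data known, and their counts are given beside those of all genes tested. Of 16 further microvillus genes, all tested, 15 had a lower fitted level with Dnmt3a+/Δ BM (49.8% of all genes), 8 had groups that did not overlap, all of them lower (6.32% of all genes), and the median log2 fold change was -0.54. None was called by edgeR or DESeq2, and 8 had an unadjusted edgeR p under 0.05, all lower (5.2% of all genes). The remaining partners of the tip complex were among the lower ones: Anks4b, its ankyrin scaffold, at 72.7, 88.1 and 76.0 CPM against 42.5, 26.0, 60.9 and 44.2 CPM (log2 fold change -0.86 ± 0.26, edgeR adjusted p = 0.383), and Calml4, a light chain of its motor, at 76.3, 96.8 and 76.4 CPM against 32.4, 51.2, 64.7 and 67.3 CPM (-0.63 ± 0.26, adjusted p = 0.435). Every Dnmt3a+/Δ tumor lay below every Dnmt3a+/+ tumor for both. The scaffold Ush1c (harmonin) at -0.55 ± 0.24 and the motor Myo7b at -0.076 ± 0.32 had overlapping groups, so the 2 cadherins and 2 of 4 cytoplasmic partners had groups that did not overlap.

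The actin machinery of the microvillus core and membrane was similar in direction. Myo1a, the myosin that tethers the core to the membrane, was at 412, 595 and 578 CPM against 282, 148, 400 and 280 CPM (log2 fold change -0.93 ± 0.32, edgeR adjusted p = 0.406), and the bundler Espn at 45.0, 32.0 and 37.1 CPM against 22.7, 17.5, 26.9 and 19.5 CPM (-0.81 ± 0.20, adjusted p = 0.361). Neither gene had overlapping groups. Baiap2l1, Myo1d, Pls1 and Eps8 did not overlap either, with log2 fold changes between -0.72 and -0.39. Close to or above 0 were Myo7b, Cobl and Twf2, the last 2 at -0.016 and -0.012, and Pdzk1, at 0.71 ± 0.53 with 0.774 CPM or less in every tumor. Under scaling by the summed epithelial counts the median of this list moved to 0.10, and under scaling by their geometric mean to -0.15.

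Surface hydrolases other than those of the set were mostly scarce. Of 13, 11 were tested, and the disaccharidases Sis and Lct, which mark the small intestine, were not, with at most 0.031 and 0.386 CPM. Of the 11, 9 had a lower fitted level, against 49.8% of all genes, and the groups of all 11 overlapped. Their median log2 fold change of -0.34 was not stable, at 0.059 without Dnmt3a+/+ tumor 2, -0.65 without Dnmt3a+/+ tumor 3 or Dnmt3a+/Δ tumor 2, and -0.0021 with experiment as a term. Of them 1 had an unadjusted p under 0.05, against 5.2% of all genes in its direction, Xpnpep2, a membrane aminopeptidase (-0.98 ± 0.42, edgeR adjusted p = 0.448). Mgam, maltase-glucoamylase, was the one abundant member, at 82.9, 147 and 189 CPM against 90.9, 77.6, 126 and 146 CPM. Beside the meprins the astacin family was represented by Bmp1, a procollagen C-proteinase, at 20.98, 8.34 and 11.5 CPM against 23.6, 38.6, 15.6 and 18.03 CPM (0.82 ± 0.42, adjusted p = 0.512), and by Tll1 at 4.43 CPM or less. Tll2 had 0 counts in all 7 tumors and Astl 0.025 CPM in 1 of them.

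The guanylin pathway downstream of the peptides was mixed in direction. Gucy2c, the receptor guanylate cyclase C, was at 87.6, 145 and 84.5 CPM against 69.6, 78.0, 85.9 and 69.3 CPM (log2 fold change -0.48 ± 0.22, edgeR adjusted p = 0.47), with 1 Dnmt3a+/Δ tumor inside the Dnmt3a+/+ range. Prkg2, the cyclic GMP-dependent kinase II that the receptor feeds, was at 24.4, 14.8 and 24.9 CPM against 32.1, 39.0, 64.8 and 93.1 CPM, higher in every Dnmt3a+/Δ tumor (1.42 ± 0.40, edgeR adjusted p = 0.373, DESeq2 adjusted p = 0.028). Abcc4, an exporter of cyclic nucleotides, was also higher in every Dnmt3a+/Δ tumor, at 44.8, 32.8 and 46.6 CPM against 66.5, 128, 59.8 and 63.0 CPM (0.94 ± 0.30, edgeR adjusted p = 0.392). Cftr, the chloride channel the kinase opens, was at -0.95 ± 0.47, and Slc9a3, the sodium-proton exchanger it closes, at 3.02 ± 1.27, with 74.8 CPM in Dnmt3a+/Δ tumor 2 and at most 12.4 CPM elsewhere. Of the 6 pathway genes 3 had an unadjusted p under 0.05, all higher (5.83% of all genes), 2 were higher in every Dnmt3a+/Δ tumor (6.12%), and DESeq2 called 1, Prkg2 (1.51%). Their median log2 fold change of 0.50 was 0.26 without Dnmt3a+/Δ tumor 2.

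Transcription factors of the intestinal epithelium, several of which are known to act on brush border genes, were counted as well. Of 8, 7 were tested and 6 had a lower fitted level, against 49.8% of all genes (median log2 fold change -0.86). Under scaling by the summed epithelial counts this median moved to -0.29, and under scaling by their geometric mean to -0.51. At an unadjusted p under 0.05 there were 4 lower (5.2% of all genes) and 1 higher (5.83%), edgeR called 0, and DESeq2 called 1 lower, Cdx1 (0.417%). Hnf4a was at 479, 765 and 412 CPM against 290, 255, 378 and 291 CPM (-0.86 ± 0.25, edgeR adjusted p = 0.377), and Cdx1 at 224, 291 and 246 CPM against 116, 63.5, 147 and 132 CPM (-1.15 ± 0.28, edgeR adjusted p = 0.361, DESeq2 adjusted p = 0.022). Neither had overlapping groups, and nor did Elf3 (-0.38 ± 0.16, edgeR adjusted p = 0.45). These 3 were lower in every Dnmt3a+/Δ tumor, as were 6.32% of all genes. Cdx2 went the other way, at 10.6, 9.40 and 11.2 CPM against 10.2, 21.4, 17.6 and 22.8 CPM (0.79 ± 0.29, edgeR adjusted p = 0.42), with Dnmt3a+/Δ tumor 1 inside the Dnmt3a+/+ range. Gata4, a factor of the small intestine, was at 0.062 CPM or less.

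**Figure D4:**
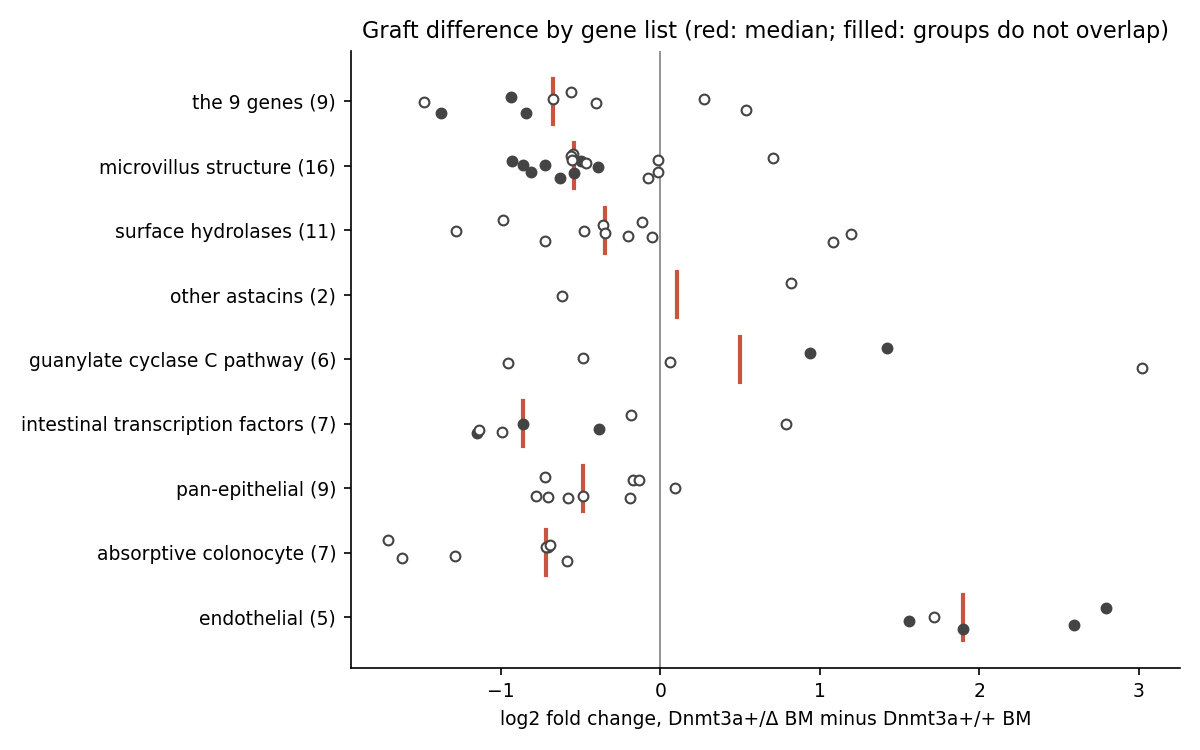
Log2 fold change of every tested gene, Dnmt3a+/Δ BM minus Dnmt3a+/+ BM, for the 9 genes and 8 other lists (points, genes; filled, groups do not overlap; red line, median; number tested in brackets). The microvillus, transcription factor and colonocyte lists lie mostly below 0, the endothelial list above 0, and the guanylate cyclase C pathway on both sides.

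Among 11086 genes with a mean of at least 5 CPM, those whose log2 CPM over the 7 tumors was most like the mean standardized profile of the set were Calm3 (Pearson r = 0.994, Spearman rho = 0.964), Atp8a2 (r = 0.984, rho = 0.964) and Srr (r = 0.982, rho = 1.00), followed by Zc3h3, Szrd1, Tmem8, Gmppa and Galnt6 (r from 0.970 to 0.965). Calm3 encodes calmodulin, which in microvilli serves as the light chain of brush border myosin, Atp8a2 a phospholipid flippase, Srr serine racemase, and Galnt6 an enzyme that starts mucin-type glycosylation. All 8 had negative fitted fold changes, between -0.80 and -0.30. That direction followed from how they were picked and is no result. The mean profile of the set was above 0 in every Dnmt3a+/+ tumor and below 0 in every Dnmt3a+/Δ tumor. The 7 points come from 7 libraries that also differ in graft and in epithelial content, so the ranking is a description.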

How the data were processed

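Poly(A) RNA of 7 whole colon tumors (RIN above 7.0 in the labels) was sequenced from directional libraries. The submitters' processing notes name FastQC, Trimmomatic, STAR, RSEM, DESeq2 and mm10. The authors deposited estimated counts per Ensembl gene, here whole numbers, before any normalization. Of 43346 identifiers, 42462 matched a symbol in GENCODE M21, and 18994 had 0 counts in every tumor.

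Grafts were compared with edgeR 4.0.16 (filterByExpr by graft, TMM, quasi-likelihood test, Benjamini-Hochberg adjustment over 15810 genes), and a gene was called where the adjusted p was below 0.05 and the log2 fold change exceeded 1 in either direction. The experiment contrast had graft as a term. DESeq2 1.42.0 was an alternative, and DESeq2 is the tool the study used. Per-kilobase values used exon union lengths. The scripts were tested on simulated data. Named genes were the 9 members, genes of the fixed lists and the 8 most alike in profile. The members and the lists were chosen with earlier results of these data known. No pair of tumors was a duplicate: the closest pair by rank correlation, 1 tumor of each graft, differed far beyond sampling noise. The closing section gives the effect of other scalings, filters, subsets and left-out tumors.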

Additional observations from a re-analysis of the deposited data

Results flagged for a closer look

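Of 51 values examined over the 4 Dnmt3a+/Δ tumors, 1 stood apart from the rest of its group by Dixon's ratio: Abcc4 at 128 CPM in Dnmt3a+/Δ tumor 2, with a gap of 0.859 of the group's range to its nearest neighbour. Chance flags about 1 in 20 groups, or 2.6 of 51. The groups of 3 Dnmt3a+/+ tumors were not examined in this way. The same tumor held the highest Dpp4 (27.3 CPM), Slc9a3 (74.8 CPM) and summed fibroblast, macrophage and endothelial markers.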

How the results depend on the processing

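Every gene of the set had 199 counts or more in every tumor, so counting error was small beside the spread between the 3 and 4 tumors. In the graft contrast edgeR called 0 genes under every alternative run in which calls were counted, and DESeq2 called 304. Calls over all genes were not counted under the epithelial scalings. At an unadjusted p under 0.05 the 1744 genes became 883 without Dnmt3a+/+ tumor 2 and 1114 without Dnmt3a+/Δ tumor 2. In the experiment contrast the 1 gene called became 461 by DESeq2, 14 with no filter on low counts, 0 among the Dnmt3a+/Δ tumors alone, and 0 to 72 with each tumor left out, the 72 without Dnmt3a+/Δ tumor 2. The set's median of -0.67 ran from -0.80 to -0.53 with each tumor left out. It moved to -0.45 on library size alone (all genes 0.21), to -0.24 on the geometric mean of the epithelial genes and to 0.016 on their sum. On that sum Vil1 (0.12), Guca2a (0.016) and Guca2b (0.16) changed sign. With each tumor left out, Dpp4 ran from -0.51 (without Dnmt3a+/Δ tumor 2) to 0.64 and Guca2b from -0.84 to 0.027 (without Dnmt3a+/+ tumor 3). In the experiment contrast Mep1a was 0.38 among the Dnmt3a+/Δ tumors alone, and with each tumor left out Mep1a ran from -1.27 to 0.39 (without Dnmt3a+/+ tumor 3), Cdhr2 from -0.073 (without Dnmt3a+/Δ tumor 3) to 0.26 and Guca2a from -0.51 to 0.0093 (without Dnmt3a+/Δ tumor 2). The median of the 2 tested astacins, 0.10, was 1.29 without Dnmt3a+/+ tumor 1 but -0.66 without Dnmt3a+/Δ tumor 1, -0.23 without Dnmt3a+/+ tumor 2 and -0.21 without Dnmt3a+/+ tumor 3, and that of the intestinal transcription factors, -0.86, was -0.53 without Dnmt3a+/+ tumor 2. Where no cause is named, the cause was not tested. Of all values under an alternative, 313 kept their side of the threshold and their direction, or moved by less than the spread between tumors. Another 19 moved by at least that spread, and 9 values of single genes changed sign. By the number of genes counted or the side of the threshold, 6 became stronger and 7 weaker.

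The tumors numbered 1 deviated together (correlation 0.568), while those numbered 2 and 3 did not (0.071 and -0.038), so the numbers were not taken to pair the tumors. With a replicate block over numbers 1 to 3, 0 genes were called and the set's median was -0.80.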
